A study of Mus musculus with 4 samples.

Results

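The genes described here are 10 genes of cartilage matrix and chondrocyte identity: Sox9, Acan, Hapln1, Comp, Matn2, Matn3, Matn4, Prg4, Cnmd and Ihh. They were picked by name, as 10 of 22180 genes with an array row of a single gene symbol, and each had 1 such row. Earlier results of these data were known when these genes and the lists below were chosen. Their levels were compared between primary mouse osteoblast cultures labelled Runx3f/f/Col1a1-cre, called mutant-labelled here, and wild-type (WT) cultures. That label names floxed Runx3 alleles, meant for deletion by a Cre recombinase under the Col1a1 promoter, which is active in cells that make type I collagen. The cultures of both groups were grown from progenitors of newborn calvaria (skull cap bone) for 21 days in osteogenic medium with ascorbate and glycerol phosphate, and each group had 2 arrays, numbered as biological replicates 1 and 2. The labels do not state the strain, the number of animals per culture, or whether wild-type cells carried floxed alleles or Cre. One tag of the labels calls the tissue myoblast, whereas cell type tag and titles say osteoblast.

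Cartilage is built by chondrocytes, and SOX9 is the transcription factor that switches on their matrix genes. Aggrecan (Acan), a very large proteoglycan, is tied to hyaluronan by the link protein Hapln1, matrilins and COMP join it to the collagen fibrils, lubricin (Prg4) coats joint surfaces, chondromodulin (Cnmd) keeps vessels out of cartilage, and Indian hedgehog (Ihh) is sent out by chondrocytes that are about to enlarge. Most of the calvaria forms bone directly from mesenchyme, without a cartilage model. RUNX factors, which bind the core TGTGGT or TGCGGT, act in osteoblasts and in maturing chondrocytes. The series set out to find the part of the osteoblast programme that depends on Runx3.

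The promoters of the 4 members that read lower in the mutant-labelled cultures of each replicate, and that had an entry, show which of them carry a RUNX core close to a transcript start. RefSeq (GRCm38.p6) held promoters for 6 of the 10 members, with 7 entries because Matn4 had 2. Each run below is the 250 bases before the listed start, 5′ to 3′ on the gene's strand, with RUNX core matches on either strand in capitals.
Cnmd (chr14:79662184-79662433, - strand): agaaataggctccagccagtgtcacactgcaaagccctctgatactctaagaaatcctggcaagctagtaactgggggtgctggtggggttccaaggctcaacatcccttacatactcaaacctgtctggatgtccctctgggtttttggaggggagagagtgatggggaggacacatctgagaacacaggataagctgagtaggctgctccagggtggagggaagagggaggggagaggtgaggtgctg
Acan (chr7:79052976-79053225, + strand): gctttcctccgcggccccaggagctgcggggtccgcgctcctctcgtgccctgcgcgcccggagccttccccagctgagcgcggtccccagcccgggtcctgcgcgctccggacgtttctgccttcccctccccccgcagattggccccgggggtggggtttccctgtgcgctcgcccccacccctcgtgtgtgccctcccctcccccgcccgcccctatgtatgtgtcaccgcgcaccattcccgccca
Hapln1 (chr13:89540386-89540635, + strand): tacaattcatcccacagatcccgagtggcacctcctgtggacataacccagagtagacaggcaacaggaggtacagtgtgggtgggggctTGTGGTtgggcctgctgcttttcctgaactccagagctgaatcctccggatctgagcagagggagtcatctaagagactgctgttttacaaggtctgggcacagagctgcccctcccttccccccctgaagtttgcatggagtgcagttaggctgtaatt
Ihh (chr1:74951673-74951922, - strand): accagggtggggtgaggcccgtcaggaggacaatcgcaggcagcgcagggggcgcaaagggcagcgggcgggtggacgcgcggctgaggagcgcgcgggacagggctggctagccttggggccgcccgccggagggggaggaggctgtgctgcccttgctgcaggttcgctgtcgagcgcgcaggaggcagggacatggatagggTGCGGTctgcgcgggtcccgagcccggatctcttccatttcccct

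Hapln1 had 1 TGTGGT, beginning 160 bases before the start, and Ihh had 1 TGCGGT, beginning 45 bases before it. Cnmd and Acan had neither core in this window, nor had the 3 entries of Matn3 and Matn4. Of all 32851 RefSeq promoters cut to the same 250 bases, 18.6% held TGTGGT or TGCGGT on either strand. The SOX cores ACAAAG and ACAATG were in 25.2% of all promoters and in 0 of the 7 entries. Bases G or C made up 54% (Cnmd) to 74.4% (Acan) of the entries, against a median of 52.4% for all promoters. The shares were not matched for this. These matches describe the letters only, and no binding was measured.

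Values are those deposited by the authors, taken to be on a log2 scale, so that 1 unit is a 2-fold difference. The floor for detection was 4.71, set at the 90th percentile of 1405 odorant and vomeronasal receptor rows, ranked by mean. Genes with at least 2 of 4 arrays above it were tested, 17841 in all, and all 10 members were among them. Replicate 2 arrays read higher than replicate 1 arrays, with medians over tested genes of 7.81 against 7.53, and receptor rows alone put the floor at 5.06 to 5.08 against 4.50. Mutant-labelled and wild-type arrays of a replicate number held exactly the same value (tolerance 0) in 15613 of 41345 rows for replicate 1 and 18665 for replicate 2. No label explains this, and an equal value does not show that a gene was unchanged. Runx3 did not read lower on the arrays labelled as mutant but higher within both replicates (7.94 and 8.06 against 7.45 and 7.87). The cause was not tested, and where its probes lie relative to the deleted part was not examined. With 2 arrays a group an exact permutation test cannot go below p = 0.333, and p-values measure only the spread between these arrays. In cultures of mixed cells, fewer cells of a type and less RNA per cell cannot be told apart.

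Cnmd was lower and Prg4 higher on the mutant-labelled arrays by more than 1.5-fold within both replicates, whereas the other 8 members differed by at most 1.39-fold in each. Within both replicates, 5 of the 10 members were lower (Cnmd, Acan, Hapln1, Comp and Ihh) and 2 were higher (Prg4 and Matn2). The remaining 3, Sox9, Matn3 and Matn4, held exactly equal values in at least 1 replicate. Of all tested genes, 19.5% were lower and 16.8% higher within both replicates, 1.15% at least 1.5-fold lower and 1.47% at least 1.5-fold higher, and 60.3% were equal within at least 1 replicate. A gene equal in a replicate counts as neither, so a list with fewer equal values can exceed both shares for that reason. In limma, with group as the only term, 0 of the 10 members and 0 of 17841 genes (0% of them) passed the adjusted threshold of 0.05, and the lowest adjusted p of any gene was 0.312. At unadjusted p under 0.05 there were 2 members, Cnmd and Prg4, against 3.96% of tested genes.

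**Figure D1:**
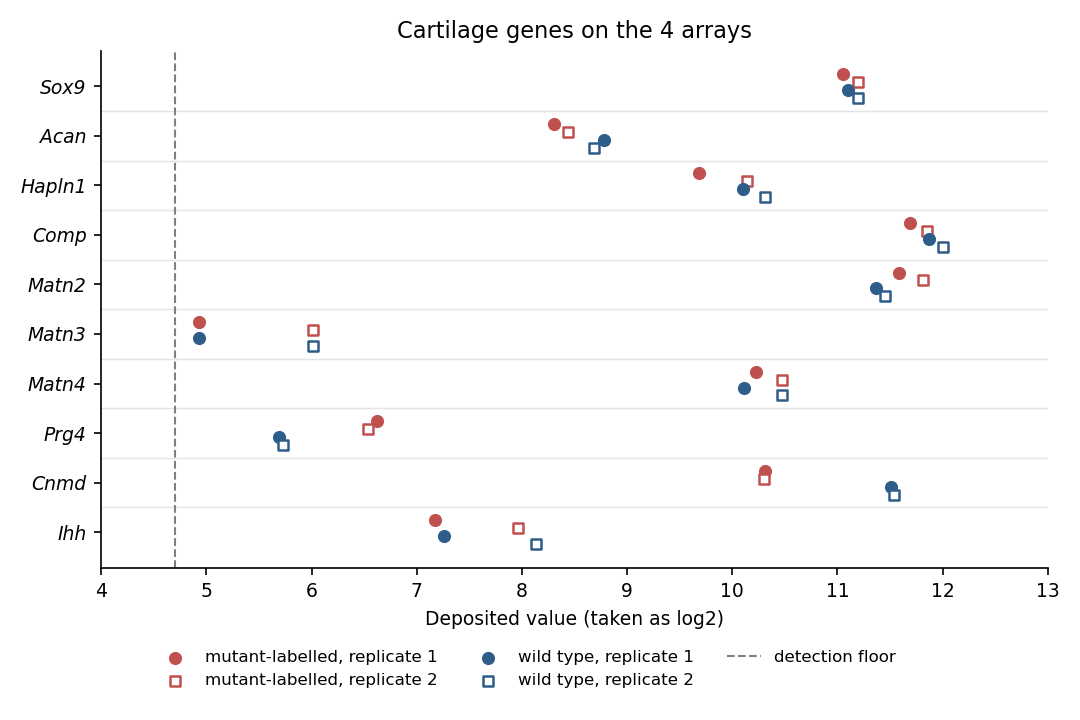
Deposited value (taken as log2, x axis) of each of the 10 cartilage genes on every array. Circles are replicate 1 and squares replicate 2, red is mutant-labelled and blue wild type, and the dashed line is the detection floor of 4.71. Cnmd and Prg4 separate widely by group, and Acan, Comp and Matn2 by smaller gaps, while Matn3 and Ihh separate by replicate number.

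Sox9, the transcription factor of the chondrocyte lineage, read 11.05 and 11.20 on the mutant-labelled arrays and 11.10 and 11.20 on the wild-type arrays. The groups overlapped, with a difference of -0.05 within replicate 1 and equal values within replicate 2. The limma estimate was -0.02 (SE 0.13), and it turned to 0.049 without mutant-labelled replicate 1 and to 0.025 without wild-type replicate 2. Here and for the members below, a difference with an array left out still holds the offset between replicate numbers. Its level was far above the floor on all 4 arrays, so RNA of this factor was detected in both groups of these cultures.

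Acan and Hapln1, which form the aggrecan aggregate, were both a little lower on the mutant-labelled arrays. Acan read 8.31 and 8.43 there and 8.79 and 8.68 in wild type. The 2 groups did not overlap, and the differences were -0.48 and -0.25 within replicates 1 and 2 (limma mean -0.36, SE 0.13, adjusted p = 1). For Hapln1 the values were 9.69 and 10.14 against 10.10 and 10.31. These groups overlapped, since replicate 2 of the mutant-labelled cultures lay above replicate 1 of wild type, and the differences were -0.42 and -0.17 (mean -0.29, SE 0.22, adjusted p = 1 in limma). That mean was -0.07 or -0.52 when mutant-labelled replicate 1 or 2 was left out, and -0.19 when wild-type replicate 2 was. In both genes the difference in replicate 1 was the larger.

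Comp, the pentameric thrombospondin-family protein that binds collagen fibrils, read 11.69 and 11.85 on the mutant-labelled and 11.87 and 12.01 on the wild-type arrays. Its groups did not overlap, but the gap between the nearest arrays was small next to the offset of 0.16 between the mutant-labelled replicates. Within replicates the differences were -0.18 and -0.16, a 1.12-fold lower mean (limma adjusted p = 1). With the replicate number as a block in limma, the SE was 0.010 and the adjusted p 0.245. The mean difference of -0.17 became -0.09 without mutant-labelled replicate 1 and -0.10 without wild-type replicate 2. Of all tested genes, 9.25% had groups that did not overlap with the mutant-labelled one lower, and 7.66% with it higher. Among the members the first were 3 (Cnmd, Acan and Comp) and the second 2 (Prg4 and Matn2).

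The matrilins are adaptor proteins with von Willebrand factor A domains, and no test between them was made. Matn2, the member that is made in many connective tissues beside cartilage, was higher, at 11.59 and 11.82 against 11.37 and 11.45. Its groups did not overlap, with differences of 0.22 and 0.36 within the replicates (mean 0.29, SE 0.15, limma adjusted p = 1), and the mean was 0.18 without mutant-labelled replicate 2. Matn4 read 10.23 and 10.47 against 10.11 and 10.47, which is 0.11 within replicate 1 and an equal value within replicate 2, and its mean difference of 0.06 turned to -0.07 without mutant-labelled replicate 2 and to -0.12 without wild-type replicate 1.

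Matn3, a matrilin largely restricted to cartilage, held the same value in both groups, 4.93 in replicate 1 and 6.02 in replicate 2. Such equality within both replicates was found in 25.7% of tested genes. The step of 1.09 between replicate numbers exceeds that of any other member, and 94.5% of receptor rows lay below the gene in replicate 1 and 96.7% to 96.9% in replicate 2. Equal values at this brightness do not show whether Matn3 differed. With an array left out its difference ran from -0.54 to 0.54. As the groups held equal values, that range comes from the step between replicate numbers alone and does not measure a group difference.

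Prg4, which encodes lubricin, was 1.83-fold higher on the mutant-labelled arrays. It read 6.63 and 6.53 there, and 5.69 and 5.73 on the wild-type arrays. The groups were well apart: the replicates of a group lay within 0.09 of each other, whereas the differences were 0.93 and 0.81 within replicates 1 and 2. The limma mean was 0.87 (SE 0.12, unadjusted p = 0.00297, adjusted p = 0.465). Prg4 was dim, since 95.6% of receptor rows lay below it on the dimmest array by this measure, wild-type replicate 2, and 99.6% on mutant-labelled replicate 1. Re-quantiling the arrays and adding the replicate block, a fit chosen after seeing the data, gave a limma adjusted p of 0.0387, the only fit run in which it passed.

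Cnmd, which encodes chondromodulin, had the widest difference of the 10 genes. The mutant-labelled arrays read 10.31 and 10.30 and the wild-type arrays 11.51 and 11.54, which is 10.30 ± 0.00478 against 11.52 ± 0.0183 (SD, n = 2 arrays each). The groups were far apart and replicates nearly coincided, with differences of -1.20 and -1.24 within the replicates, or 2.30-fold and 2.36-fold lower. The limma mean was -1.22 (SE 0.12, unadjusted p = 0.000803), and its adjusted p of 0.312 equalled the lowest of any gene. Other genes shared that adjusted value, among them Col10a1 and Panx3, described below, with lower unadjusted limma p (0.000785 and 0.000746). Cnmd passed with an intensity trend in the variance (limma adjusted p = 0.0259) and with re-quantiled arrays plus the block (limma adjusted p = 0.0387), and in no other fit run. Unlike most other members, Cnmd carried almost no offset between replicate numbers (-0.01 in the mutant-labelled and 0.03 in the wild-type cultures).

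Ihh, the ligand through which cartilage instructs neighbouring bone-forming cells, read 7.17 and 7.96 against 7.26 and 8.13. The groups overlapped almost wholly, because the replicate numbers lay 0.79 and 0.87 apart in the mutant-labelled and wild-type cultures. Within replicates the differences were -0.09 and -0.17. The mean of -0.13 (SE 0.46, limma adjusted p = 1) turned to 0.27 without mutant-labelled replicate 1 and to 0.31 without wild-type replicate 2. Both turns carry the offset between replicate numbers, which leaving out an array does not remove. With the replicate number as a block in limma, the SE was 0.035 and the adjusted p 0.559.

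**Figure D2:**
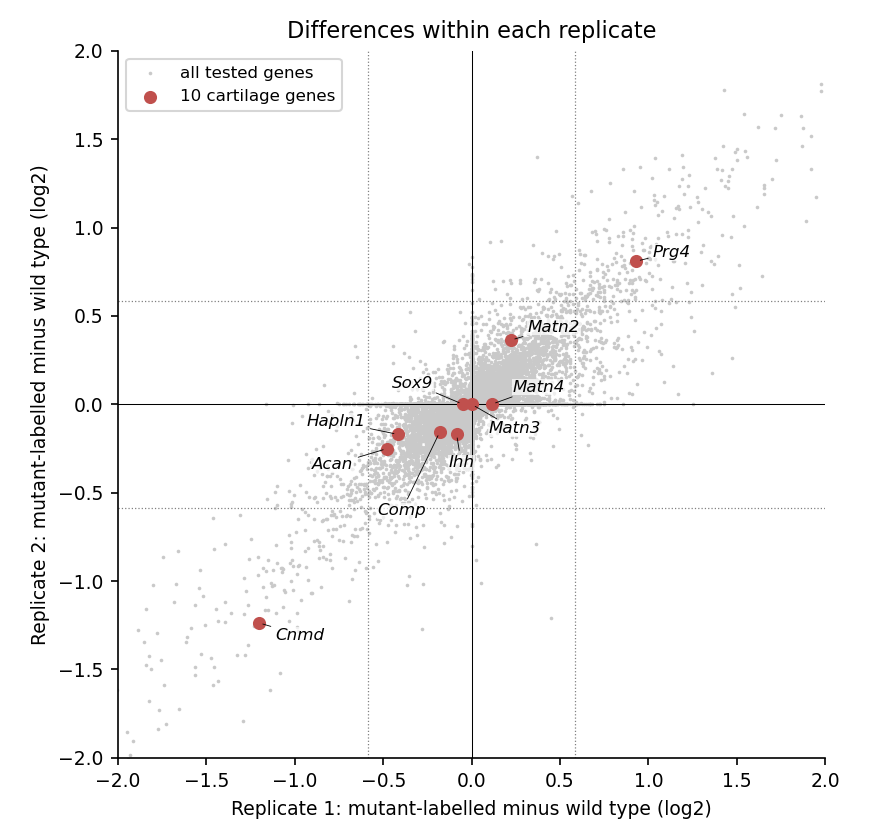
Difference of mutant-labelled minus wild type in replicate 1 (x axis) and replicate 2 (y axis), in log2 units, for all tested genes (grey, 59 of which lie outside the axes) and the 10 cartilage genes (red). Dotted lines mark 1.5-fold; Cnmd at -1.20 and -1.24 and Prg4 at 0.93 and 0.81 lie beyond them in both replicates.

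Over the 10 members the median difference was -0.08, with -0.07 and -0.08 within replicates 1 and 2, while the median of all tested genes was 0. The genes closest to a member in pattern were sought by the distance between array values centred on each gene's mean, over 4 arrays only, for the 3 members with the widest mean differences. For Cnmd these were Panx3 (distance 0.02 log2 units), Sgms2 (0.11) and Cda (0.14). Panx3, a channel gene of osteoblasts and enlarging chondrocytes, read 8.66 and 8.66 on the mutant-labelled and 9.90 and 9.91 on the wild-type arrays. Those closest to Prg4 were Ddit4 (0.06), Tmem88 (0.08) and the microRNA gene Mir5125 (0.09), and those closest to Acan were Rangap1 (0.02), Prmt1 (0.02) and Pcbd1 (0.04). With so few arrays such closeness describes the values and nothing more.

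A list of 25 other cartilage matrix genes was read in the same way. All 25 were tested, 8 were lower and 4 higher within both replicates, 2 at least 1.5-fold lower (Col10a1 and Col2a1) and 1 at least 1.5-fold higher (Otor). In limma 0 passed the adjusted threshold, 4 were lower and 1 higher at unadjusted p under 0.05, and the median difference was -0.06. Equal values in both replicates were held by 3 and in 1 replicate by 10. The shares for all tested genes are those given for the members.

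Col2a1, which encodes the main fibril collagen of cartilage, read 10.41 and 10.21 on the mutant-labelled arrays and 11.42 and 11.09 on the wild-type arrays. The groups did not overlap, and the differences were -1.01 and -0.88 (1.93-fold lower, limma adjusted p = 0.678). Col10a1, the collagen of enlarged chondrocytes, had 5.53 and 5.52 against 7.37 and 7.79, a 4.15-fold lower mean with -1.84 and -2.26 within replicates (limma adjusted p = 0.312). Both mutant-labelled values of Col10a1 lay close to the floor.

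Col9a3, a chain of the collagen on the surface of cartilage fibrils, differed by -0.74 and -0.42 within the replicates. Epyc, a small leucine-rich proteoglycan of growth cartilage that was singled out after its values were seen, differed by -0.62 and -0.52. Otor, a small secreted protein first described in the inner ear, went the other way, at 8.06 and 8.21 against 7.04 and 7.31 (1.94-fold higher, limma adjusted p = 0.581). Matn1, also singled out afterwards, is a matrilin confined largely to cartilage; it read 4.47 and 5.02 in both groups, below the receptor floor of each array.

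**Figure D3:**
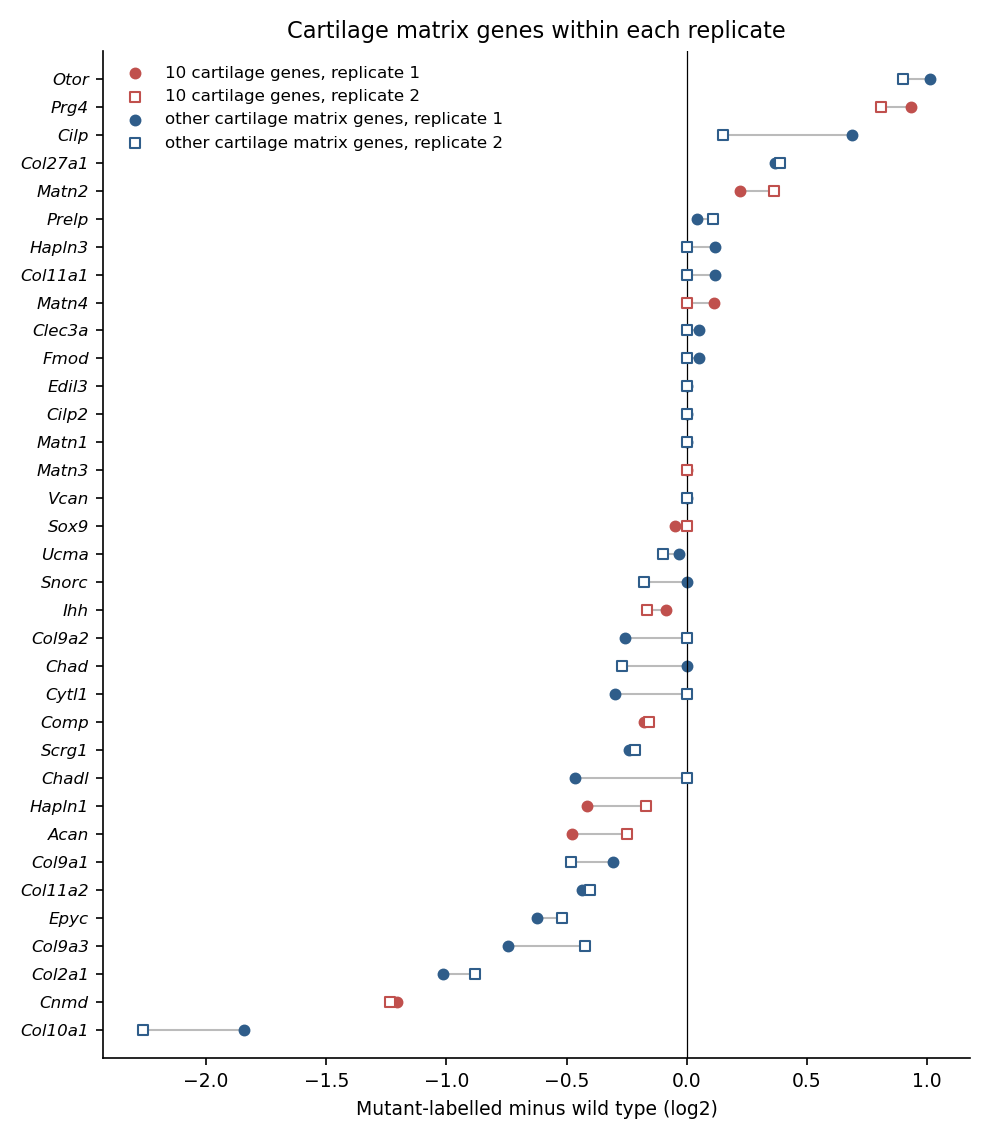
Difference of mutant-labelled minus wild type (log2, x axis) within replicate 1 (circles) and replicate 2 (squares) for the 10 cartilage genes (red) and 25 other cartilage matrix genes (blue), ordered by mean difference. Col10a1, Cnmd and Col2a1 lie lowest, Otor and Prg4 highest, and many genes lie at exactly 0 in a replicate.

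Among other regulators of chondrocytes (transcription factors, receptors and ligands), 17 of 19 genes with a row were tested. Of these, 5 were lower and 4 higher within both replicates, against 19.5% and 16.8% of all tested genes. Equal values in both replicates were held by 4 and in 1 replicate by another 4. By 1.5-fold in both there were 0, and 0 reached an unadjusted limma p under 0.05. The median difference was 0. Sox5 and Sox6, which act with SOX9 on matrix genes, lay on opposite sides: Sox6 read 8.88 and 9.13 against 8.51 and 8.83 (0.36 and 0.31 within replicates), and Sox5, named after its values were seen, differed by -0.35 and -0.25. Pth1r, the receptor through which parathyroid hormone-related protein slows chondrocyte maturation, differed by -0.32 and -0.15, Zbtb20 by 0.40 and 0.30 and Mef2d by 0.20 and 0.18.

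Genes that send or receive the hedgehog signal of Ihh were 17, all tested, of which 11 were higher and 0 lower within both replicates, where 16.8% of all tested genes were higher and 19.5% lower. The other 6 held equal values in at least 1 replicate, where 60.3% of all tested genes did, and 0 were 1.5-fold apart in both. In limma 0 passed after adjustment and 1, Gas1, had an unadjusted p under 0.05, and the median difference was 0.11. Groups did not overlap in 7 genes, all higher on the mutant-labelled arrays, as in 7.66% of all tested genes. The cell-surface co-receptors of hedgehog ligands were among them: Gas1 read 11.37 and 11.38 against 10.91 and 11.05, Boc differed by 0.31 and 0.28 within replicates, and Cdon by 0.39 and 0.32. Gli2, a transcription factor of the pathway, differed by 0.62 and 0.40. Some of the 11 were barely higher: Smo differed by 0.01 and 0.04, and Hhip, near the floor, by 0.35 and 0.0048. Smo and Hhip were named after their values were seen. Leaving out wild-type replicate 1 moved the list median to -0.0028 and the median over all tested genes to -0.16. Ihh itself, as given above, was not higher within either replicate.

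Enzymes and transporters that make chondroitin sulfate and hyaluronan, the sugar chains of the aggrecan aggregate, showed small differences, more often lower than higher. Of 26 tested, 11 were lower and 4 higher within both replicates, where 19.5% of all tested genes were lower and 16.8% higher. Equal values in both replicates were held by 2 and in 1 replicate by 7, where 60.3% of all tested genes were equal in at least 1. By 1.5-fold in both there were 0, with 0 at unadjusted limma p under 0.05 and a median of -0.05. The 4 with the smallest p were B3galt6 (-0.26 and -0.15 within replicates), Chst7 (-0.41 and -0.11), Chst11 (-0.34 and -0.11) and Chsy3 (0.24 and 0.14), the last on the brighter of 2 rows.

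Proteases that cut cartilage matrix and their inhibitors held wider differences in both directions. Of 15 tested, 8 were lower and 2 higher within both replicates, against 19.5% and 16.8% of all tested genes. The other 5 held an equal value in 1 replicate, while 60.3% of all tested genes were equal in at least 1. At least 1.5-fold lower were 2 and at least 1.5-fold higher 1, against 1.15% and 1.47% of all tested genes. The median was -0.12, and 0 were past the adjusted limma threshold. Adamts4, an aggrecan-cutting enzyme, read 8.47 and 8.85 on the mutant-labelled and 7.50 and 7.98 on the wild-type arrays (1.90-fold higher, limma adjusted p = 1). Adamts15, which also cuts proteoglycans, was the reverse, at 6.62 and 6.82 against 7.61 and 7.78 (1.96-fold lower, limma adjusted p = 0.527). Mmp3 differed by -2.50 and -2.14 within replicates, with mutant-labelled values of 4.95 and 5.41 close to background, and Timp1, an inhibitor of such proteases, by -0.36 and -0.40.

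Proteins that bind the members or share their matrix showed small differences throughout. Of 14 tested, 5 were lower and 1 higher within both replicates, against 19.5% and 16.8% of all tested genes, and 0 by 1.5-fold. Equal values in both replicates were held by 2 and in 1 replicate by 4, where 60.3% of all tested genes were equal in at least 1. The median was 0.0045. Thbs3 (0.23 and 0.09) and Thbs4 (-0.27 and -0.16), relatives of Comp, had the smallest p.

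Markers of some other cells also differed between the same arrays. For reading their counts, 19.5% of all tested genes were lower within both replicates, 16.8% higher, 1.15% at least 1.5-fold lower and 1.47% at least 1.5-fold higher. Another 60.3% were equal within at least 1 replicate and count as neither. Macrophage markers were lower within both replicates in 19 of 20 genes, with a summed linear level (2 to the power of each value, added up) of 2992 and 3385 on the mutant-labelled and 9716 and 10534 on the wild-type arrays. Mineralizing osteoblast markers were lower in 9 of 13, 7 by at least 1.5-fold, with sums of 29206 and 32110 against 36652 and 40157. Adipocyte markers were lower in 7 of 8 tested genes, 4 by at least 1.5-fold. Among them Fabp4 differed by only -0.25 and -0.05 within replicates, and Adipoq was too dim to be tested. Of 10 endothelial markers 3 were at least 1.5-fold higher, 3 held equal values in both replicates and 3 in 1 replicate. The last endothelial marker went opposite ways, and the list median was 0.02. Of 12 tendon and synovial markers 5 were lower and 4 higher, 0 by 1.5-fold, with sums of 24444 and 27083 against 23349 and 26077. Of 12 skeletal muscle markers 9 were tested, 0 of them with an unadjusted limma p under 0.05. The part of these cell types in the values of Cnmd, Prg4, Col2a1 and Col10a1 was not tested.

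**Figure D4:**
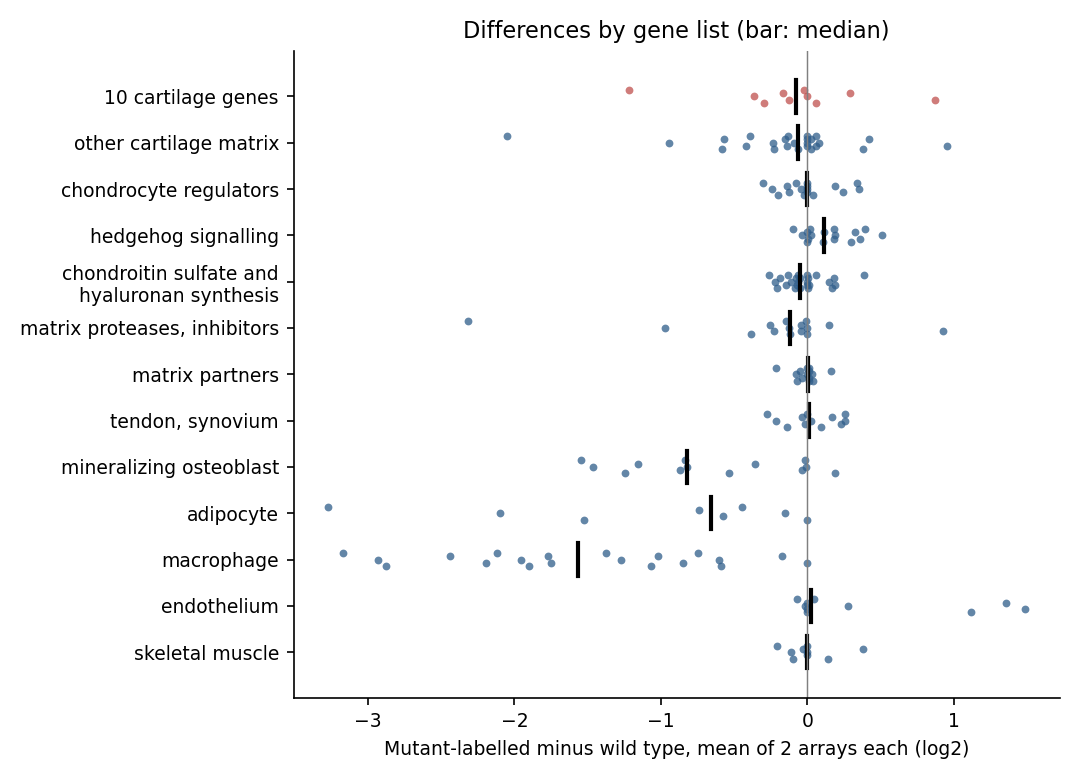
Difference of mutant-labelled minus wild type (log2, mean of 2 arrays per group, x axis) for each tested gene of each list, with the 10 cartilage genes in red and list medians as bars. The cartilage lists centre near 0, from -0.12 to 0.11, and the macrophage list lies at -1.57.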

How the data were processed

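RNA of 4 cultures was hybridised to GeneChip Mouse Gene ST arrays. The authors deposited 1 table of values, taken here as log2; per the submitters' processing notes they used Partek and RMA, and no source used here states the log base, centring, genome build or the arrays processed together. Precision is limited by the number of arrays. Rows were named through the platform annotation, using rows with 1 symbol (23521 of 41345) and the row of highest mean per gene.

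All tested genes were fitted together using limma 3.58.1 under R 4.3.3 (linear model with group alone, moderated by eBayes, two-sided, Benjamini-Hochberg adjustment), and differences were taken within each replicate. Members and lists were chosen with earlier results of these data known. Named genes were Runx3, the members, up to 4 genes of smallest p per list described, and the 3 closest to each of 3 members. Epyc, Matn1, Sox5, Smo, Hhip, Fabp4 and Adipoq were named besides these, after their values were seen. Marker lists are otherwise given by counts. Same-numbered arrays deviated together (r = 0.92 across tested genes, raised by equal values), so the SEs with group alone count that shared offset as spread. The labels do not tie numbers to a litter or day, and the replicate block was run as an alternative. Other alternatives changed the floor, normalization, variance model, rows per gene, thresholds and arrays.

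The code was tested on data with known answers.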

Additional observations from a re-analysis of the deposited data

How the results depend on the processing

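With the replicate block, 0 genes and 0 members passed the adjusted limma threshold, and Cnmd had adjusted p = 0.164 and Prg4 0.245. Acan, Hapln1, Comp and Matn2 had limma adjusted p of 0.544, 0.602, 0.245 and 0.471 in that fit. Genes equal within both replicates, 25.7% of those tested, have no residual spread in the block fit and enter its shared variance estimate. How far they limit its count of 0 was not tested. An intensity trend called 49 genes and 1 member (Cnmd, limma adjusted p = 0.0259). Quantile normalization again with the replicate block, chosen after seeing the data, called 399 genes and 2 members (Cnmd and Prg4, both limma adjusted p = 0.0387). Over all alternatives the adjusted p ran up to 1 for both. Without adjustment 707 genes and 2 members had p under 0.05. At 1.2-fold in both replicates 670 genes were lower and 804 higher, and at 2-fold 102 and 85, with 0 members higher. Counts within both replicates cannot be had with an array left out. Leaving out an array leaves the replicate offset in the difference (median of all tested genes -0.16 to 0.15): Sox9 then ran from -0.10 to 0.049, Matn4 from -0.12 to 0.24, Ihh from -0.56 to 0.31 and Matn3, at 0 with all arrays, from -0.54 to 0.54. Hapln1 (-0.52 to -0.07), Comp (-0.25 to -0.09), Matn2 (0.18 to 0.41), Acan, Cnmd and Prg4 kept their sign. Floors, rescaling and averaging of rows turned no member's sign, though quantile normalization again moved Matn3 from 0 to -0.035. A missed threshold does not show that the members were alike.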
